A study of Mus musculus with 6 samples.

Results

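The type 17 cytokine genes Il17a, Il17f and Il22, the receptor genes Il23r and Il1r1, the transcription factor gene Ahr, the membrane protein genes Tmem176a and Tmem176b, and Nrp1 were followed in innate lymphoid cells (ILCs) of the allergen-challenged mouse lung. They were chosen by name, as genes known from ILC3s and from type 17 immunity, with earlier results of these data known. All 9 were among the 14416 genes of the count table. The tested samples were 3 libraries from Rbm3 knockout mice (RBM3KO), set against 3 libraries from wild-type mice (WT). All mice were C57BL/6J and all had received 25 µg of the mould Alternaria alternata 3 times over 7 days, so no unchallenged lung stands beside them. Lin-Thy1.2+ ILCs, which lack markers of other blood lineages and carry the surface protein Thy1.2, were sorted from the lungs and their polyA RNA was read by Smart-seq2. The labels do not state the lineage antibodies, the age and sex of the mice, or whether a library is 1 animal or a pool, so p-values measure the spread between these libraries.

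ILC3s are the innate counterparts of Th17 cells. They respond to IL-23 and IL-1β, and release IL-17A, IL-17F and IL-22, which act on epithelium and draw in neutrophils. Lung ILCs after Alternaria are mostly ILC2s, which make IL-5 and IL-13, but activated ILC2s can also make IL-17. The protein RBM3, made in the cold, has been reported in human cells to bind AU-rich stretches of mRNAs, and cytokine mRNAs are known for such stretches.

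Short stretches of sequence before and within these genes are shown first. The core of the element that many nuclear receptors bind, AGGTCA, was searched on both strands in the 250 bases before each RefSeq start site (build GRCm38.p6, the assembly of mm10). It stands in 14.0% of 32851 such windows in the genome. For 8 of the members 12 windows were found, since some genes have several start sites, and 4 of them, 1 each of Il17a, Il17f, Il23r and Nrp1, held the core. Of 3 other motifs searched in the same way, the AHR core GCGTG was in 2 of the 12 windows, 1 each of Il1r1 and Nrp1. It was in 28.2% of all windows. The STAT element TTCNNNGAA was in 0 of the 12, against 7.02% of all windows. A loose form of the NF-κB element was in 6 of the 12, 1 each of 6 members, against 45.8% of all windows. The windows of Tmem176a and Tmem176b that held it overlap and share the same site. Each site is printed 5′ to 3′ on the strand where the core reads AGGTCA, with the core in capitals.
Il17a, chr1:20730773-20730802, minus strand: catcctcaaatgAGGTCAgcacagaaccac
Il17f, chr1:20784311-20784340, minus strand: cagtcagtaaggAGGTCAgtggaaacaggg
Il23r, chr6:67491904-67491933, minus strand: aaatgaaaatgtAGGTCAgggctctgctga
Il23r, chr6:67492067-67492096, plus strand: aagaagtcaaacAGGTCAatggtggtcatg
Nrp1, chr8:128358823-128358852, minus strand: ctgtgctctccgcgggaagaAGGTCActag
The core began 120 bases before the RefSeq start site of Il17a, 58 before that of Il17f, 66 and 229 before that of Il23r and 246 before that of Nrp1. The start sites used for Il17f and Nrp1 lie inside the genes as annotated in GENCODE M21, and so do their cores. The whole stretch before Il17a, chr1:20730655-20730904 on the plus strand, is given for context with the same core in capitals, where it reads TGACCT because it lies on the other strand.
Il17a: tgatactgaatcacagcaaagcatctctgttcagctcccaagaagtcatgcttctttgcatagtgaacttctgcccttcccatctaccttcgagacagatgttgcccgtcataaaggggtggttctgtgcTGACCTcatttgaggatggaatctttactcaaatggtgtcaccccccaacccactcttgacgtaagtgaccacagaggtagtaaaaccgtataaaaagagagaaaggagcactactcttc
The windows of Il22, Il1r1, Tmem176a and Tmem176b did not hold these letters. A match is a description of the sequence and was not tested for binding.

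The pentamer ATTTA, the unit of classical AU-rich elements, was counted in the 3′ untranslated region of the GENCODE M21 basic transcript with the longest coding sequence. Il17a held 7 in 637 bases, Il17f 3 in 621 bases and Il22 6 in 521 bases. These are densities of 10.99, 4.83 and 11.52 per kb, against a median of 1.19 per kb over the 9994 tested genes with a matched region. The densities of Il17a and Il22 were above those of 99.2% and 99.3% of these genes, and that of Il17f above 92.8%. The densest 30 bases of each are shown with the pentamers in capitals.
Il17a, bases 344 to 373 of the region: ATTTAtatgagctATTTAtgaatctATTTA
Il17f, bases 495 to 524 of the region: taaactattatatATTTAtgttggtagggg
Il22, bases 357 to 386 of the region: ttATTTAttataagtatacattttATTTAt
By number, Il1r1 had 8 pentamers and Ahr 7, as many as Il17a or more, but in longer regions of 3864 and 2715 bases, so their densities were 2.07 and 2.58 per kb. Tmem176a had 1 pentamer (1.38 per kb), and Il23r, Tmem176b and Nrp1 had 0. Across the table, the 1891 tested genes with at least 5 pentamers had a median log2 fold change (RBM3KO minus WT) of 0.089, against 0.009 for all genes with a matched region, and the 662 genes with at least 5 pentamers per kb had a median of 0.007.

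**Figure D1:**
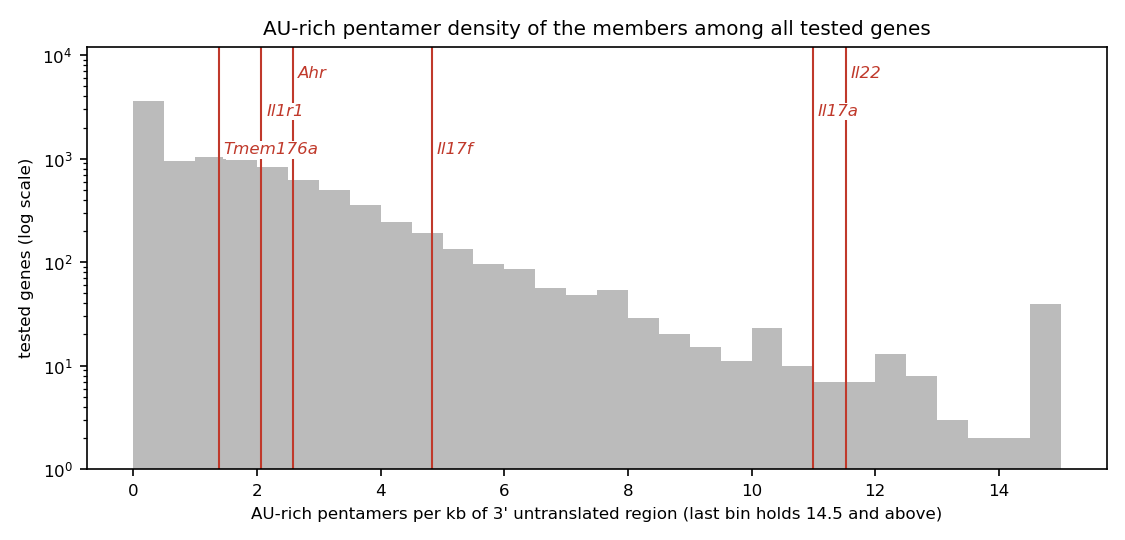
Histogram of AU-rich pentamers per kb of 3′ untranslated region (x axis) over the 9994 tested genes with a matched region (y axis, number of genes on a log scale), with a line for each of the 6 members that have any. Il17a and Il22, at 10.99 and 11.52 per kb, stand in the far right tail, and Ahr, Il1r1 and Tmem176a lie among the bulk of genes.

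Of the 9 members, 7 passed the filter on low counts and were tested across all genes with edgeR's quasi-likelihood test. None passed an adjusted p of 0.05 in either direction, while 1.25% of the 11382 tested genes did and 0.246% were called higher in RBM3KO. All 7 estimates lay above 0, with a median log2 fold change of 0.63 beside 0.01 over all tested genes. Levels are CPM, the counts of a library scaled to a common total after TMM normalisation, and a log2 fold change or log2 difference is RBM3KO minus WT, with SE its standard error. In 5 of the 7, Il17a, Il17f, Il22, Tmem176a and Tmem176b, all RBM3KO libraries lay above all WT libraries, as they did in 8.43% of all tested genes. The same 5 had an unadjusted p under 0.05 in edgeR, as did 5.46% of all tested genes on the higher side and 6.87% on the lower side. Il22 would not have passed the filter without its RBM3KO libraries, so these counts and the median describe the tested members and support no direction. In sorted bulk cells, more cells of a type and more RNA per cell cannot be told apart.

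**Figure D2:**
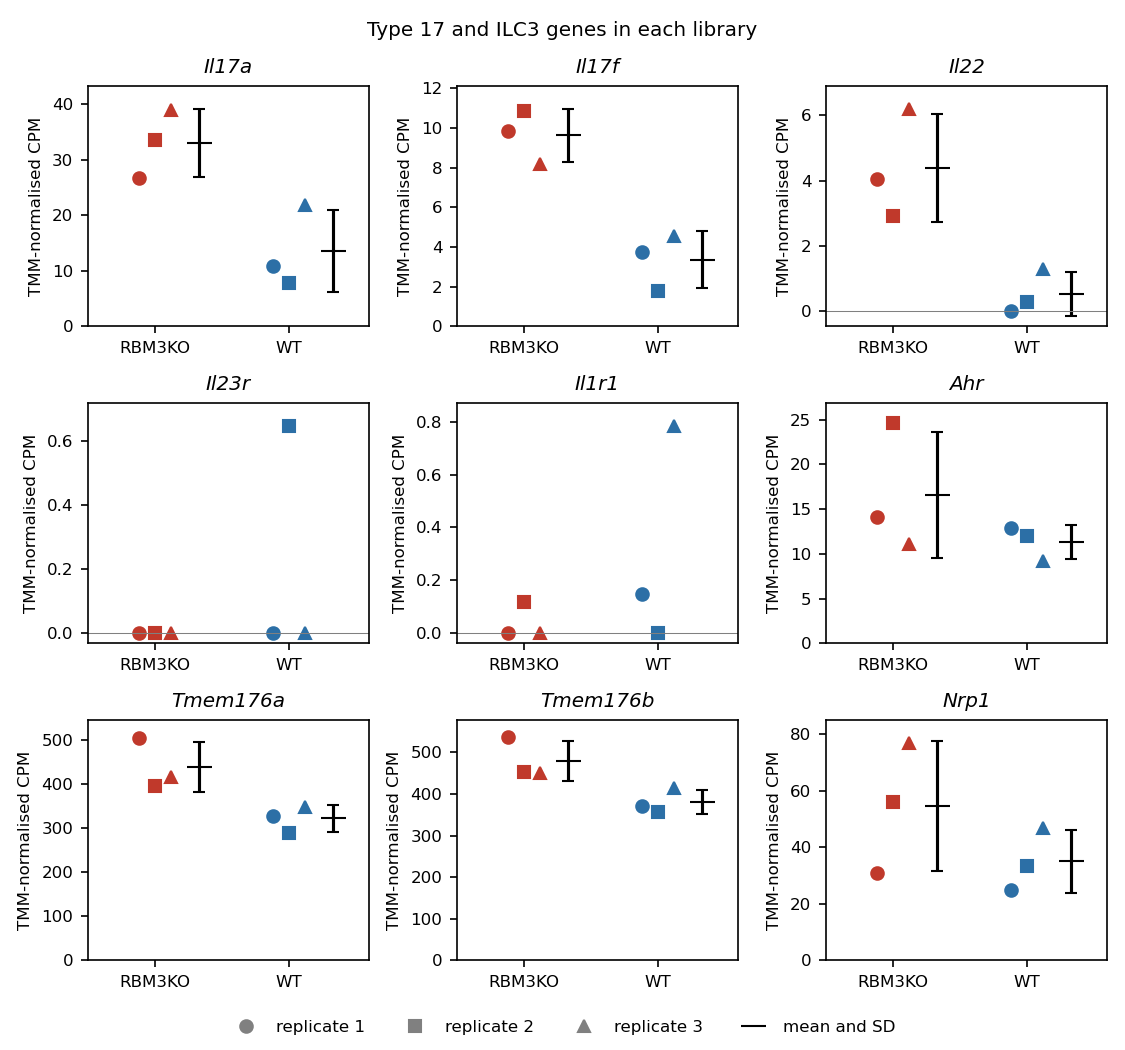
TMM-normalised CPM (y axis, a separate scale in each panel) of the 9 members in 3 RBM3KO libraries (left, red) and 3 WT libraries (right, blue). Symbols mark the replicate, and black bars the mean and SD (n = 3) for the 7 tested members. Il17a, Il17f, Il22, Tmem176a and Tmem176b do not overlap between the genotypes, and Il23r and Il1r1 are at or near 0.

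Il17a, on chromosome 1 (mm10, 20730905 to 20734496, plus strand), encodes the signature cytokine of type 17 cells. Its counts were 409, 563 and 289 in RBM3KO replicates 1, 2 and 3 and 147, 134 and 559 in WT replicates 1, 2 and 3. Scaled for depth, these were 26.7, 33.6 and 38.9 CPM in RBM3KO and 10.9, 7.87 and 21.9 CPM in WT. The highest WT library, replicate 3, came close to the lowest RBM3KO library, and the other WT libraries lay far below. The log2 fold change was 1.28 (SE 0.38), or 2.43-fold, with an adjusted p = 0.168 by edgeR. DESeq2 called it higher (log2 fold change 1.29, adjusted p = 0.0417), in a fit that called 1.35% of genes higher in RBM3KO. The estimate ran from 1.00 without WT replicate 2 to 1.82 without WT replicate 3, where the edgeR adjusted p was 0.0517.

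Il17f encodes the closest relative of IL-17A, with which it forms a heterodimer, and lies 42.6 kb from Il17a with no annotated gene between them. It had 9.84, 10.9 and 8.20 CPM in RBM3KO and 3.77, 1.76 and 4.54 CPM in WT, from 151, 182 and 61 counts in RBM3KO and 51, 30 and 116 counts in WT. Every RBM3KO library was above every WT library by a clear gap. The log2 difference was 1.52 with SE 0.54 (adjusted p = 0.259 by edgeR). Its count relative to that of Il17a was 0.301 ± 0.0813 in RBM3KO and 0.259 ± 0.0762 in WT (SD, n = 3, exact two-sided permutation p = 0.6), so no shift between the 2 cytokines was detected.

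Il22, on chromosome 10 (118204942 to 118210047, plus strand), encodes a cytokine that acts on epithelial cells. It was scarce, with 62, 49 and 46 counts in RBM3KO and 0, 5 and 33 counts in WT. These are 4.04, 2.92 and 6.19 CPM in RBM3KO and 0, 0.294 and 1.29 CPM in WT, where a count of 0 in WT replicate 1 allows up to 3 counts, or 0.222 CPM. Such limits cover counting error only. WT replicate 3 held most of the WT counts, and it is also the WT library with the most Il17a and Il17f. The log2 fold change was 2.99 with an SE of 1.34 (adjusted p = 0.401 by edgeR), and 4.76 without WT replicate 3 (adjusted p = 0.283). Il22 reached the level of the low-count filter in all RBM3KO libraries and in WT replicate 3, so RBM3KO decided that it was tested. The Il22 count relative to Il17a was 0.152, 0.0870 and 0.159 in RBM3KO and 0, 0.0373 and 0.0590 in WT. These did not overlap (exact two-sided permutation p = 0.1, the smallest that 3 against 3 can give). Since RBM3KO decided that Il22 was tested, the fold change and this ratio support no direction.

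Il23r encodes the receptor subunit specific for IL-23, the cytokine that sustains ILC3s. It had 0 counts in all RBM3KO libraries and in WT replicates 1 and 3, and 11 counts in WT replicate 2. A count of 0 allows between 0.117 and 0.403 CPM, depending on the library, so the receptor transcript was near or below detection in both genotypes. Il1r1 encodes the signalling receptor for IL-1. It had 0, 2 and 0 counts in RBM3KO and 2, 0 and 20 counts in WT, and the 20 counts of WT replicate 3 are 0.783 CPM. Neither gene passed the filter, and in a fit with no filter neither was called (adjusted p = 0.581 by edgeR for Il23r and 0.761 for Il1r1). The subunit that IL-23 shares with IL-12, Il12rb1, was by contrast plainly present, at 238 ± 50.8 CPM in RBM3KO and 192 ± 23.5 CPM in WT (SD, n = 3, adjusted p = 0.450 by edgeR). Il12rb1 is outside the rule for named genes given below.

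Ahr encodes the aryl hydrocarbon receptor, a ligand-activated factor that ILC3s need for IL-22. It had 14.1, 24.6 and 11.2 CPM in RBM3KO and 12.9, 11.98 and 9.23 CPM in WT. The genotypes overlapped, and RBM3KO replicate 2 stood well above all others. The log2 difference was 0.55 with SE 0.38 (adjusted p = 0.640 by edgeR) and 0.16 without RBM3KO replicate 2. Of the 8 genes of the AHR pathway list, 5 were tested and 0 passed in either direction. Arnt, the dimer partner of AHR, stood at 35.1 ± 10.3 CPM in RBM3KO and 37.9 ± 3.82 CPM in WT (SD, n = 3 each). The 4 AHR targets of the list that had values were named after their values were seen. Tiparp stood at 35.6 ± 7.92 CPM in RBM3KO and 24.4 ± 7.40 CPM in WT (log2 difference 0.54, adjusted p = 0.513 by edgeR). Nqo1 stood at 2.14 ± 0.349 CPM in RBM3KO and 1.30 ± 0.575 CPM in WT (0.72, adjusted p = 0.889 by edgeR). Cyp1a1 and Ahrr did not pass the filter. Cyp1a1 had 43 counts in RBM3KO replicate 1 and 0 in every other library, and Ahrr had 0 counts in RBM3KO and 18, 0 and 13 counts in WT.

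Tmem176a and Tmem176b encode paired membrane proteins of type 17 lymphocytes and of dendritic cells. They lie head to head on chromosome 6, Tmem176a on the plus strand from 48840919 and Tmem176b on the minus strand up to 48841496, and overlap by 578 bases, of which 81 are exonic in both. The library type does not mark strand, so reads in those shared bases cannot be assigned to one of them. Tmem176a had 505, 396 and 418 CPM in RBM3KO and 329, 290 and 349 CPM in WT, and Tmem176b 536, 453 and 451 CPM in RBM3KO and 370, 358 and 413 CPM in WT. Both were higher in every RBM3KO library than in any WT library, by a modest margin. The log2 fold changes were 0.45 (SE 0.12, adjusted p = 0.119 by edgeR) for Tmem176a and 0.33 (SE 0.10, adjusted p = 0.188 by edgeR) for Tmem176b. DESeq2 called Tmem176a (0.45, adjusted p = 0.0127). The count of Tmem176a relative to Tmem176b was 0.942, 0.876 and 0.928 in RBM3KO and 0.889, 0.811 and 0.844 in WT, which overlapped (exact two-sided permutation p = 0.2).

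Nrp1, on chromosome 8 (128358604 to 128503363, plus strand), encodes neuropilin-1, a co-receptor for semaphorins, VEGF and TGF-β that marks lymphoid tissue inducer-like ILC3s and lung ILC2s. It had 31.0, 56.0 and 76.8 CPM in RBM3KO and 24.7, 33.3 and 46.9 CPM in WT. The range within each genotype exceeded the distance between the means, and the lowest RBM3KO library lay below 2 WT libraries. The log2 difference was 0.63 with SE 0.33 (adjusted p = 0.485 by edgeR), and it was 0.31 without RBM3KO replicate 3 and 0.92 without RBM3KO replicate 1.

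**Figure D3:**
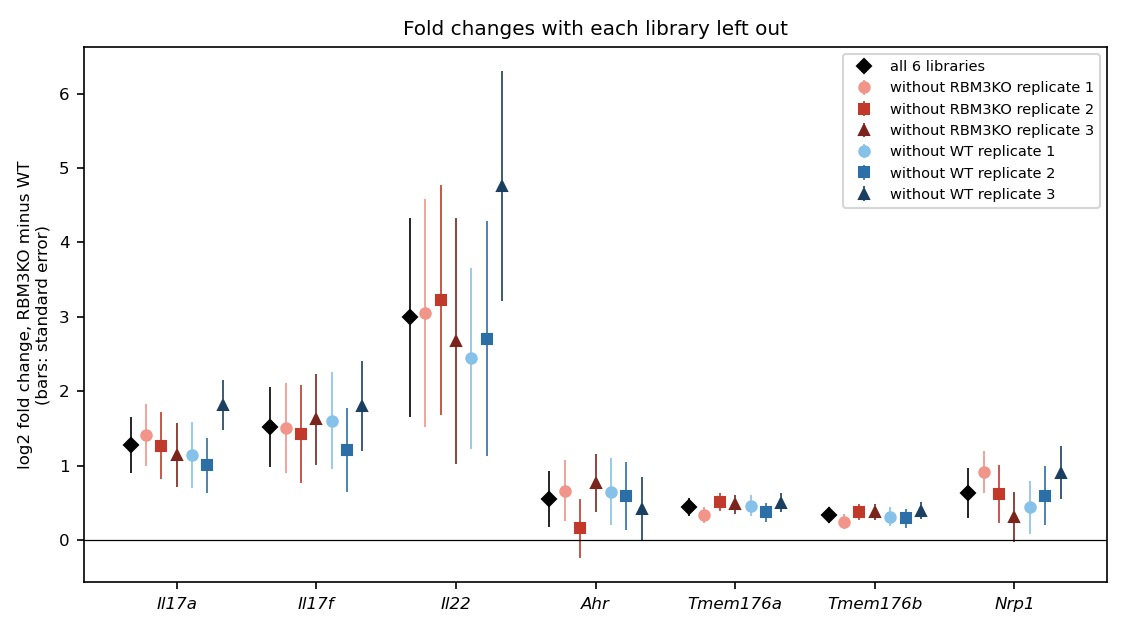
Log2 fold change (y axis, RBM3KO minus WT, bars show the SE) of the 7 tested members with all 6 libraries (black) and with each library left out. All estimates stay above 0, those of Il22 run from 2.44 to 4.76, and that of Ahr is 0.16 without RBM3KO replicate 2.

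Levels per kilobase of annotated exon allow a rough comparison between genes. Exons of all annotated transcripts were merged, expressed here or not, so the order depends on these lengths. They were 3.81 kb for Tmem176a and 2.371 kb for Tmem176b. Tmem176b and Tmem176a were the most abundant members, at 202 ± 20.6 and 115 ± 15.1 CPM per kb in RBM3KO. In WT they had 160 ± 12.3 and 84.7 ± 7.91 CPM per kb (SD, n = 3). Il17a followed with 28.2 ± 5.23 CPM per kb in RBM3KO and 11.6 ± 6.30 CPM per kb in WT. In RBM3KO, Nrp1 (5.58 ± 2.34), Il17f (4.77 ± 0.662), Il22 (3.95 ± 1.49) and Ahr (2.70 ± 1.15 CPM per kb) came next, and neighbours in this order overlapped. In WT the order was Nrp1 (3.58 ± 1.14), Ahr (1.84 ± 0.306), Il17f (1.66 ± 0.709) and Il22 (0.476 ± 0.610 CPM per kb), and Il17f overlapped with both of its neighbours. Il23r and Il1r1 were last in both genotypes, at no more than 0.260 CPM per kb in any library.

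Il17a and Il17f were each the other's nearest member by the shape of their levels over the 6 libraries. Likeness is the root mean square difference of log2 CPM, centred on the gene's mean over all 6 libraries. The difference between the genotypes is therefore part of it. It was 0.343 for this pair, rank 12 of 11381 tested genes seen from Il17a and rank 5 seen from Il17f. Tmem176a and Tmem176b differed by 0.0744, rank 6 seen from Tmem176a and rank 20 seen from Tmem176b. The nearest member to Il22 was Il17a, at 1.29 and rank 65. Ahr and Nrp1 were closest to Tmem176b, at ranks 1930 and 2069. Among the 7605 other genes with a mean of at least 10 CPM, the profiles closest to Il17a were those of Cobll1 (0.302), Anxa1 (0.313), Zc3h13 (0.335), Mier1 (0.338) and Gab3 (0.349). Of these, Anxa1, encoding annexin A1, was itself called higher in RBM3KO, at 172 ± 26.4 CPM against 71.1 ± 11.6 CPM in WT (log2 difference 1.27 with SE 0.16, adjusted p = 0.00716 by edgeR). Since the match to Il17a takes in the genotype difference, the direction of Anxa1 is no separate support for that of Il17a.

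The wider type 17 pathway was described by 8 lists of 86 genes in all. The lists were chosen with earlier results of these data known. Counts and medians over them describe these genes and support no direction. Of the 60 tested genes that are not members, 0 passed the edgeR threshold in either direction, 42 had an estimate above 0, and the median log2 fold change was 0.21. All RBM3KO libraries lay above all WT libraries in 15 of the 60 and below in 3, against 8.43% and 10.5% of all tested genes. At an unadjusted p under 0.05 there were 13 higher and 2 lower, against 5.46% and 6.87% of all tested genes. DESeq2 called 9 genes of the lists, members included, and 8 of these were higher in RBM3KO. The remaining gene, Plxna3, passed the low-count filter through its WT libraries only. That fit called 1.35% of all genes higher and 2.30% lower. The type 17 cytokine list had the highest median of the lists, 1.30 over 5 tested genes, members included. Csf2, encoding GM-CSF, stood at 9.55 ± 3.34 CPM in RBM3KO and 3.87 ± 1.53 CPM in WT (log2 difference 1.30 with SE 0.53, adjusted p = 0.349 by edgeR), and Il21 at 8.80 ± 2.53 CPM in RBM3KO and 6.93 ± 0.533 CPM in WT (SD, n = 3 each).

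**Figure D4:**
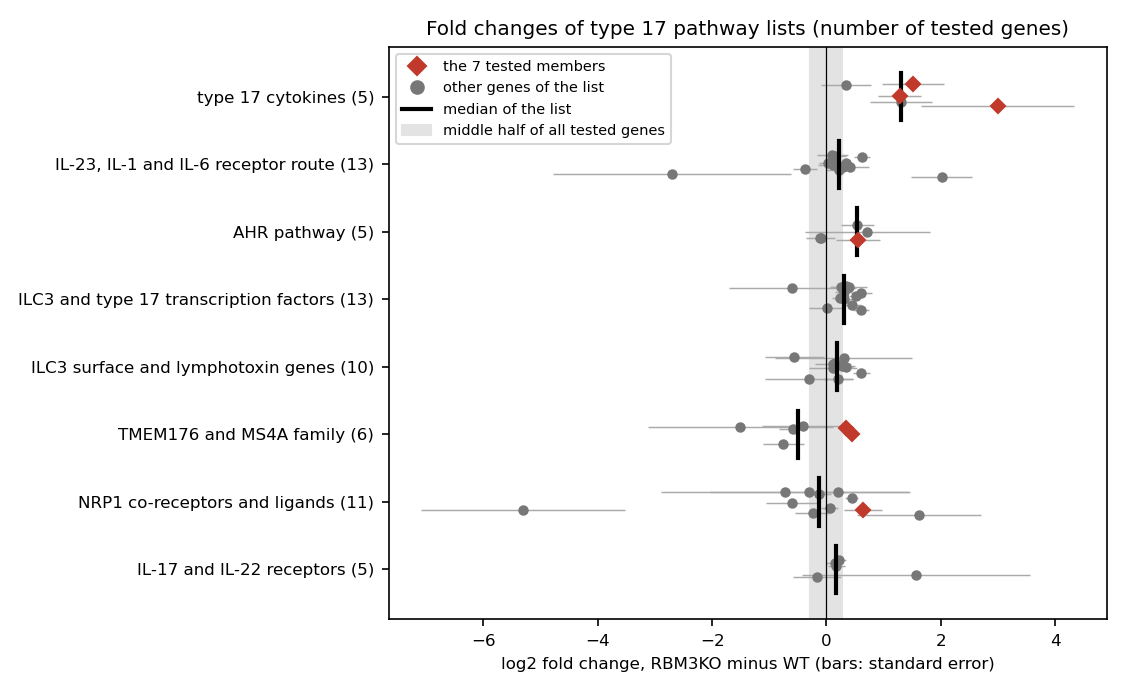
Log2 fold change (x axis, RBM3KO minus WT, bars show the SE) of every tested gene in the 8 type 17 lists, with the number of tested genes in brackets. Red diamonds are members, grey circles other genes, black lines list medians and the grey band the interquartile range of all tested genes. The cytokine list has a median of 1.30, and the TMEM176 and MS4A list, in which both Tmem176 genes stand above 0, a median of -0.50.

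In the list of the IL-23, IL-1 and IL-6 receptor route, 13 of 15 genes were tested and the median was 0.21. Il1r2, which encodes the decoy receptor that binds IL-1 without signalling, was abundant where Il1r1 was nearly absent. It had 1133, 1625 and 1250.3 CPM in RBM3KO and 738, 986 and 895 CPM in WT, with no overlap (log2 difference 0.61 with SE 0.14, adjusted p = 0.0741 by edgeR). Il1r2 was called in 6 of 14 alternatives, with adjusted p between 0.000458 and 0.0498. These were no filter, a floor of 10 CPM, DESeq2, limma-voom, equal depth and the replicate block. With a library left out Il1r2 was never called, at adjusted p between 0.0689 and 0.32 by edgeR. Stat3, the transducer of IL-23 and IL-6, stood at 407 ± 45.7 CPM in RBM3KO and 321 ± 19.8 CPM in WT (adjusted p = 0.189 by edgeR). Il1rap, encoding the accessory chain that IL-1 and IL-33 receptors share and named after its values were seen, had 18.7, 11.9 and 8.47 CPM in RBM3KO and 5.02, 2.70 and 2.00 CPM in WT, also without overlap (log2 difference 2.02 with SE 0.53, adjusted p = 0.123 by edgeR, DESeq2 adjusted p = 0.0179).

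Among 13 tested ILC3 and type 17 transcription factors, 12 had an estimate above 0 and the median was 0.31. Nfkbiz, encoding the NF-κB cofactor IκBζ that promotes type 17 cytokine genes, had 558, 497 and 504 CPM in RBM3KO and 333, 276 and 421 CPM in WT, with no overlap (log2 difference 0.60 with SE 0.14, adjusted p = 0.0781 by edgeR). Nfkbiz was called in 4 of 14 alternatives, with adjusted p between 0.00157 and 0.0317. These were no filter, a floor of 10 CPM, DESeq2 and the fit without WT replicate 3. In the others the adjusted p reached 0.311, by edgeR without WT replicate 1. Id2, a regulator common to ILCs, stood at 2065 ± 219.7 CPM in RBM3KO and 1699 ± 64.3 CPM in WT (adjusted p = 0.199 by edgeR). Hif1a, a hypoxia factor that also acts in Th17 cells, was named after its values were seen. It had 172, 154 and 169 CPM in RBM3KO and 106, 120 and 121 CPM in WT (0.51, SE 0.12, adjusted p = 0.0730 by edgeR, 0.0110 by DESeq2 and 0.0402 by edgeR with a floor of 10 CPM).

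The ILC3 surface and lymphotoxin list had a median of 0.18 over 10 tested genes. Ltb, a lymphotoxin subunit that lymphoid tissue inducer cells use, stood at 1360.1 ± 239 CPM in RBM3KO and 1221 ± 113 CPM in WT, and the chemokine receptor gene Cxcr6 at 1821 ± 326 CPM in RBM3KO and 1441 ± 148 CPM in WT. Il7r, encoding the IL-7 receptor chain that ILCs need and named after its values were seen, had 147, 161 and 141 CPM in RBM3KO and 80.3, 99.5 and 115 CPM in WT, with no overlap (adjusted p = 0.0922 by edgeR, 0.0133 by DESeq2 and 0.0423 by edgeR with a floor of 10 CPM). In the TMEM176 and MS4A list, Ms4a4b stood at 39.3 ± 9.21 CPM in RBM3KO and 66.5 ± 40.5 CPM in WT and Ms4a6b at 29.9 ± 1.90 CPM in RBM3KO and 45.0 ± 11.5 CPM in WT, so the estimates of these relatives were below 0 while those of both Tmem176 genes were above 0 (SD, n = 3, none past the edgeR threshold). In the list of NRP1 co-receptors and ligands the median was -0.13 over 11 tested genes. Sema4a stood at 341 ± 49.5 CPM in RBM3KO and 295 ± 6.27 CPM in WT, and Tgfbr2, a TGF-β receptor, at 422 ± 42.0 CPM in RBM3KO and 311 ± 33.3 CPM in WT (adjusted p = 0.107 by edgeR, DESeq2 adjusted p = 0.0100). Plxna3, a plexin partner named after its values were seen, had 0, 0 and 2 counts in RBM3KO and 48, 69 and 33 counts in WT. Its adjusted p was 0.226 by edgeR and 0.0253 by DESeq2. Plxna3 passed the low-count filter through its WT libraries only, so these p-values support no direction. The IL-17 and IL-22 receptor list had a median of 0.17 over 5 tested genes, with Il17ra at 218 ± 41.4 CPM in RBM3KO and 197 ± 26.5 CPM in WT and the IL-25 receptor gene Il17rb at 229.8 ± 22.2 CPM in RBM3KO and 197 ± 23.2 CPM in WT.

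The libraries held between 7498247 (RBM3KO replicate 3) and 25068137 counts (WT replicate 3). Rbm3 matched its labels, with 406, 375 and 235 counts in RBM3KO and 3649, 5336 and 7473 counts in WT. Summed CPM of marker lists, here relative to the total count without TMM, moved with the genotype in several cases. The pan-ILC and lymphocyte markers lay between 5087 and 5197 CPM in RBM3KO and between 4142 and 4203 CPM in WT, and the ILC2 markers between 8614 and 9024 CPM in RBM3KO and between 6396 and 7786 CPM in WT. Macrophage, monocyte and dendritic cell markers lay between 2573 and 3304 CPM in RBM3KO and between 3635 and 4408 CPM in WT, and B and plasma cell markers between 39.2 and 42.6 CPM in RBM3KO and between 65.1 and 90.7 CPM in WT. None of these 4 lists overlapped (exact two-sided permutation p = 0.1 each, the smallest possible). The non-overlap of the type 17 genes thus stands beside that of ILC and ILC2 markers. These marker lists are not separate from the type 17 lists, with which they share genes such as Id2 and Il7r (pan-ILC) and Il17rb (ILC2). Of the 5 pan-ILC markers, 4 had an estimate above 0 and 1 was called higher by edgeR. Among the 12 ILC2 markers, 11 had an estimate above 0 and 0 were called. In the macrophage, monocyte and dendritic cell list 4 of 15 tested genes lay above 0, and in the B and plasma cell list 0 of 6, with 0 called in either. The ratios of mean summed levels, RBM3KO over WT, were 1.23 for the pan-ILC list and 1.29 for the ILC2 list. After TMM, the scale of the gene values, they were 1.27 and 1.33. The fold changes of the members without overlap were 2.43 for Il17a, 2.87 for Il17f, 7.96 for Il22, 1.36 for Tmem176a and 1.26 for Tmem176b. The part of ILC and ILC2 markers in the type 17 results was not tested.

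T cells and γδ T cells are the other usual sources of IL-17A in lung. The T cell markers, 14 of 17 with values, summed to between 1293 and 1565 CPM in RBM3KO and between 1216 and 1396 CPM in WT and overlapped, and several of them (Cd3g, Lck, Zap70 and Lat) are also used by ILCs. Of the 11 tested T cell markers, 4 had an estimate above 0 and the median log2 fold change was -0.06, with 0 called in either direction. The 3 CD3 chains went different ways, and all overlapped. Cd3g averaged 242 CPM in RBM3KO and 177 CPM in WT, Cd3e 20.6 CPM in RBM3KO and 22.2 CPM in WT, and Cd3d 7.72 CPM in RBM3KO and 16.6 CPM in WT. The γδ T cell list, 4 of 9 genes with values, summed to between 9.47 and 28.0 CPM in RBM3KO and between 7.57 and 32.8 CPM in WT. All 4 were tested, 2 had an estimate above 0, and the median was -0.03. Cd163l1 had 235, 222 and 26 counts in RBM3KO and 75, 290 and 141 counts in WT, 5830411N06Rik 179, 192 and 29 in RBM3KO and 26, 122 and 600 in WT, Blk 30, 7 and 9 in RBM3KO and 0, 16 and 0 in WT, and Sox13 0, 0 and 7 in RBM3KO and 0, 39 and 80 in WT. The antigen receptor genes of the γδ list, such as Trdc and Trgc1, had no values, so its sum holds none of them. Those of the T cell list are not reported here. ILC1 and NK markers (272.6 to 355 CPM in RBM3KO, 312 to 747 CPM in WT), granulocyte and mast cell markers (12.9 to 23.5 CPM in RBM3KO, 21.0 to 27.6 CPM in WT) and stromal and endothelial markers (71.6 to 79.2 CPM in RBM3KO, 50.9 to 73.6 CPM in WT) overlapped as well. Epithelial markers ran from 21.1 to 362 CPM in RBM3KO and from 21.8 to 128 CPM in WT, with the highest value in RBM3KO replicate 3, where the surfactant gene Sftpc had 1843 counts. Malat1, a nuclear RNA, had 443, 327 and 730 CPM in RBM3KO and 260, 206 and 302 CPM in WT, without overlap (adjusted p = 0.109 by edgeR). Whether any of these moved the type 17 genes was not tested.

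**Figure D5:**
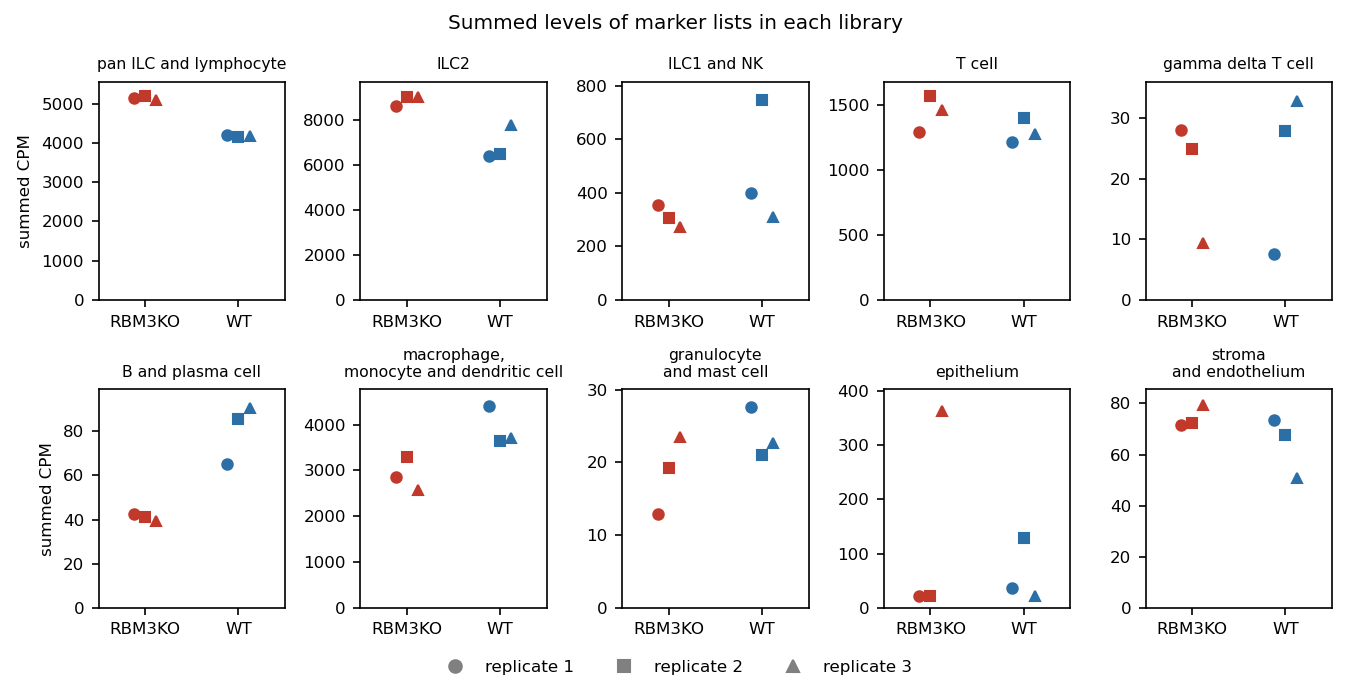
Summed CPM of 10 marker lists (y axis, a separate scale in each panel) in 3 RBM3KO libraries (left, red) and 3 WT libraries (right, blue), with symbols for the replicate. The pan-ILC and ILC2 lists are higher in every RBM3KO library, the B and plasma cell and the macrophage, monocyte and dendritic cell lists are higher in every WT library, and the other 6 overlap.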

How the data were processed

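The deposited table gives raw counts for 14416 gene symbols in the 6 samples, as whole numbers whose column totals differ. Per the submitters' processing notes, featureCounts 1.6.5, STAR 2.6.1c, Bowtie 1.0.0 and the build mm10 were used, in roles the notes do not state. The sources used here do not give the annotation or strand setting of the counting.

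Genes were filtered with filterByExpr, which left 11382, scaled by TMM and compared with edgeR 4.0.16 (R 4.3.3, robust quasi-likelihood fit, no covariate, RBM3KO minus WT, Benjamini-Hochberg over all tested genes, threshold 0.05). DESeq2 1.42.0 and limma-voom (limma 3.58.1) served as alternatives, beside other scaling and filters, a non-robust fit, a replicate block, counts thinned to 1 depth, and leaving out each library. No 2 libraries were duplicates (lowest chi-square per degree of freedom 20).

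Members and lists were chosen with earlier results of these data known, and no p was adjusted over a list. The rule for named genes took the members, genes of the 8 type 17 lists past the threshold or otherwise the 2 with the highest mean, the 5 profiles nearest to Il17a, Rbm3, Malat1 and markers of other cells. Some genes that the rule takes are not reported here. Coordinates are 1-based, from GENCODE M21 on the mm10 assembly. Of the tested genes, 87.8% had a matched 3′ untranslated region. Start site windows came from RefSeq (GRCm38.p6).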

Additional observations from a re-analysis of the deposited data

How the results depend on the processing

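The estimates of the 7 tested members stayed above 0 under every alternative in which they were tested, and 0 members were called under each, except with DESeq2, which called 2 (Il17a and Tmem176a). DESeq2 called 414 genes in all, 153 higher and 261 lower, against 142, 28 and 114 with edgeR. The number called higher was 48 without a filter, 59 with a floor of 10 CPM and 52 with limma-voom. Leaving out 1 library gave between 12 and 99 genes, between 1 and 18 of them higher and between 11 and 85 lower, with the fewest without WT replicate 1. Of the type 17 lists, 0 genes were called with edgeR. The number was 2 without a filter, 4 with a floor of 10 CPM, 9 with DESeq2, and 1 each with limma-voom, at equal depth and with the replicate block (Il1r2), and between 0 and 1 with a library left out. Over all genes, 190 were called without a filter, 212 with the floor, 186 with limma-voom and 153 at equal depth. The number of genes tested changes with the filter, and the list counts were not tested against these totals. With a library left out, the log2 estimate of Arnt ran from -0.358 to 0.0665 (without RBM3KO replicate 3) and that of Il17ra from -0.0214 (without RBM3KO replicate 1) to 0.262, and the cause was not tested. Same-numbered libraries deviated together with correlations of 0.0555, 0.0574 and 0.00531. The labels give them only a shared number, and whether they share more was not tested. With the replicate block 149 genes were called, the log2 difference of Il17a was 1.40 (adjusted p = 0.0819 by edgeR), and 4 of 6 libraries correlated best with their own number. At this depth Il23r and Il1r1 stood below the low-count filter, and at equal depth Il22 had a log2 difference of 3.13 (SE 1.20).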
